A study of Mus musculus with 6 samples.

Results

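The cellular response to low oxygen was followed through 32 genes, leaving aside the enzymes of glycolysis itself, in endothelial cells isolated by flow cytometry from tumours of the B16F0 line. The genes were chosen by symbol, with earlier results of these data known, and all 32 were present among the 24421 symbols of the count files. The 3 libraries of 1 group came from tumours of C57BL/6 mice treated with 15C4, an antibody known to block LRG1, a secreted glycoprotein that promotes vessel growth. The 3 libraries of the other group came from tumours of C57BL/6 mice treated with control IgG. Both groups carried the same tumour, a transplanted mouse melanoma line injected under the skin and grown for 17 days, and both antibodies were given at 50 mg/kg every 3 days. The labels do not give the age or sex of the mice, the surface markers of the sort, or whether each library stands for its own animal. The p-values below therefore cover the spread among 3 libraries a group, and that spread may be technical. The comparison asks how 15C4 alters expression in tumour endothelium.

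Cells sense oxygen through the EGLN prolyl hydroxylases, which use oxygen to mark the alpha subunits of hypoxia-inducible factor (HIF) for recognition by VHL and for destruction. When oxygen is short, HIF1A or EPAS1 (HIF2A) accumulates, pairs with ARNT and binds a short core motif in its target genes. The targets shift mitochondria and glucose use, stabilise pH, prepare collagen and disulphide-rich proteins for export, and include the hydroxylases themselves as a feedback. In growing tumours both melanoma cells and endothelial cells use this response, and EPAS1 is known as an abundant HIF subunit of endothelium.

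The libraries held between 5175600 (IgG 1) and 19572202 counts (15C4 2). Markers of the sorted type were present, but their summed level was below that of melanocyte markers. The 20 pan-endothelial genes summed to between 1630 and 3422 CPM (counts scaled to a fixed library total) in 15C4. In IgG 1, 2 and 3 they summed to 2010, 2801 and 227 CPM. The 12 melanocyte genes in the files summed to between 24970 and 29765 CPM over the 6 libraries. Sums of unlike markers do not give the share of cells of either type. In such a mixture, fewer cells of a type and less RNA per cell cannot be told apart. Lymphatic endothelial markers ranged from 31.4 to 63.8 CPM in 15C4 and from 11.6 to 1168 CPM in IgG, with the high value in IgG 2 and Ccl21a at 0 in every library. T and NK cell markers ranged from 4.70 to 221 CPM in 15C4 and from 8.91 to 558 CPM in IgG; the highest 15C4 value, in 15C4 1, was mostly Ccl5 (214 CPM), and Cd3e and Cd8a were at 0 in all libraries but IgG 1, which had 3 counts and 1 count. The ranges in 15C4 and IgG were 0.469 to 75.3 and 17.9 to 200 CPM for macrophage markers, 0.119 to 153 and 1.71 to 94.5 CPM for fibroblast markers, and 62.9 to 84.3 and 10.5 to 103 CPM for pericyte markers. 15C4 3 stood apart, where 1537 genes of the 11144 tested had no count, while each other library had between 31 and 507. The part of these cell types and of library quality in the values below was not tested.

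Hypoxia response genes were mostly at lower levels in the 15C4 libraries, but no member passed the test between the treatments. Of the 32 genes, 29 had enough counts to be tested with the quasi-likelihood test of edgeR, and 22 of these were fitted below 0, at a median log2 fold change (15C4 over IgG) of -0.53. Over all 11144 tested genes 49.3% were fitted below 0 and the median was 0.01. At an adjusted p under 0.05, 0 of the 29 members were called, where 0% of all tested genes were. At an unadjusted p under 0.05 there were 3 members, Ero1l, P4ha2 and Pfkfb4, all lower in 15C4. Beside them stood 2.58% of all genes (288 genes) in either direction and 1.33% lower in 15C4. Pfkfb4 had enough counts to be tested only through its IgG libraries, so its direction was all but fixed in advance. DESeq2 on the same counts called 0 members and 26 genes in all, or 0.252% of those with an adjusted p, and limma-voom called 0 members and 0 genes. At an unadjusted p under 0.05, DESeq2 gave 4 of the 28 members with a p, all lower in 15C4, beside 4.15% of all genes in either direction and 2.07% lower. By the same measure limma-voom gave 5 of 29 members, all lower in 15C4, beside 4.14% and 2.56%.

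**Figure D1:**
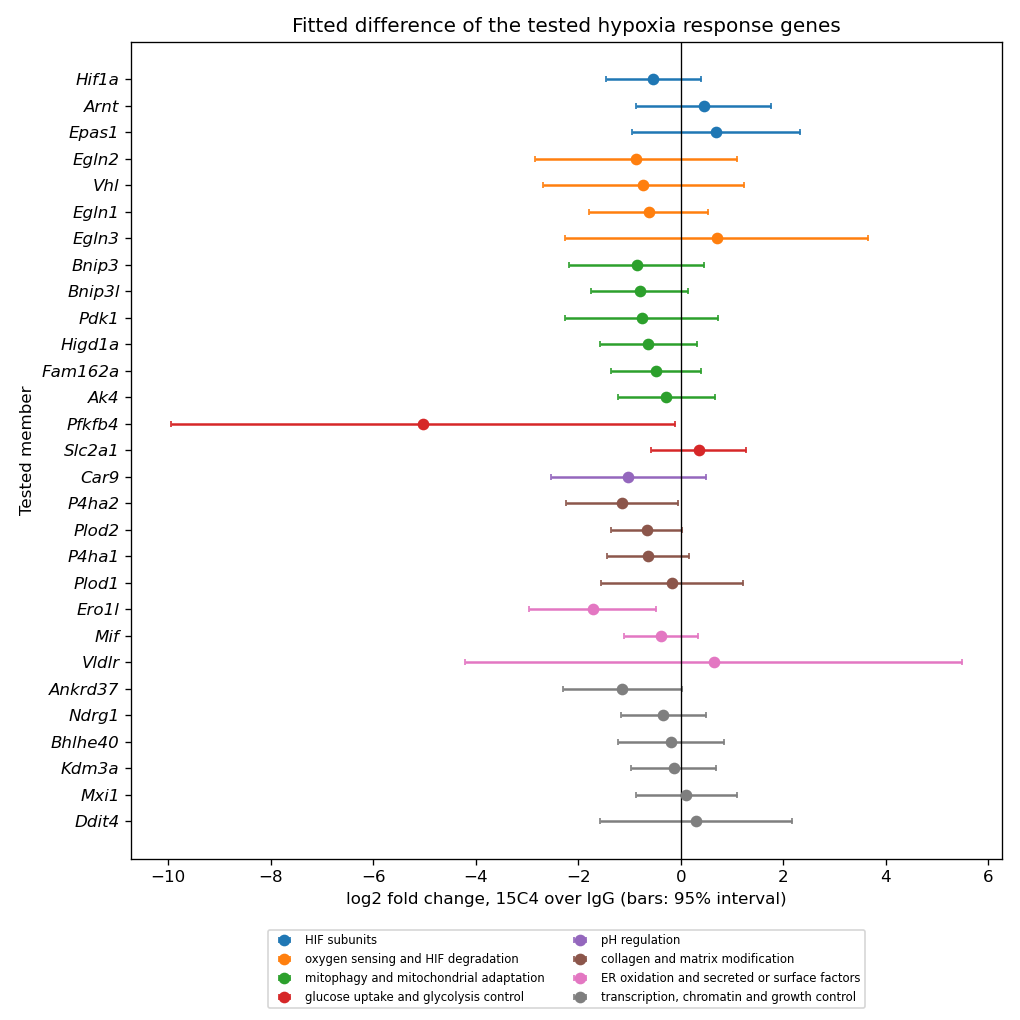
Fitted log2 fold change (15C4 over IgG, horizontal axis) of the 29 tested genes, coloured by role, with bars for the 95% interval. Points lie left of 0 for 22 genes, and only the intervals of Ero1l, P4ha2 and Pfkfb4 stay below 0, without adjustment for the number of genes tested.

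The levels of 9 members did not overlap between the groups after TMM scaling: Egln2, Higd1a, Pfkfb4, P4ha1, P4ha2, Plod2, Ero1l, Mif and Ankrd37. All 9 were lower in every 15C4 library than in any IgG library, which is 31.0% of the tested members, beside 5.92% of all tested genes with ranges lower in 15C4 and 9.50% in either direction. With 3 libraries against 3, the exact two-sided permutation test gives such a gene p = 0.1, and no smaller p is possible. On plain CPM the count was also 9, beside 6.64% of all genes, with Bnip3l in place of Egln2. Both counts include Pfkfb4, which was tested only because of its IgG libraries and could hardly separate the other way.

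Summed over the 32 members, the libraries held 7196, 7610 and 3873 CPM in 15C4 1, 2 and 3 and 8390, 11234 and 11024 CPM in IgG 1, 2 and 3. The mean of the 15C4 sums was 6226 ± 2049 CPM, that of the IgG sums 10216 ± 1585 CPM (SD over 3 libraries), and the groups did not overlap. Melanocyte markers had similar sums in both groups, 27711 ± 2377 against 28021 ± 2193 CPM, with Dct the largest part (mean 12945 CPM). By gene, 8 of the 12 were fitted above 0 and 4 below. After TMM scaling, 3 of them (Tyrp1, Pmel and Trpm1) were higher in every 15C4 library than in any IgG library. Among all 11144 tested genes, 399 were so. Of the 20 pan-endothelial genes, 17 were fitted above 0 and 3 below (median log2 fold change 0.44). The part of cell composition in the hypoxia sums was not tested. Without Ero1l, the member with the most counts, the difference of -3990 CPM between the group means of the hypoxia sums (15C4 minus IgG) became -2698 CPM. It was -2813 CPM without 15C4 3 and -2409 CPM without 15C4 3 and IgG 3 together.

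**Figure D2:**
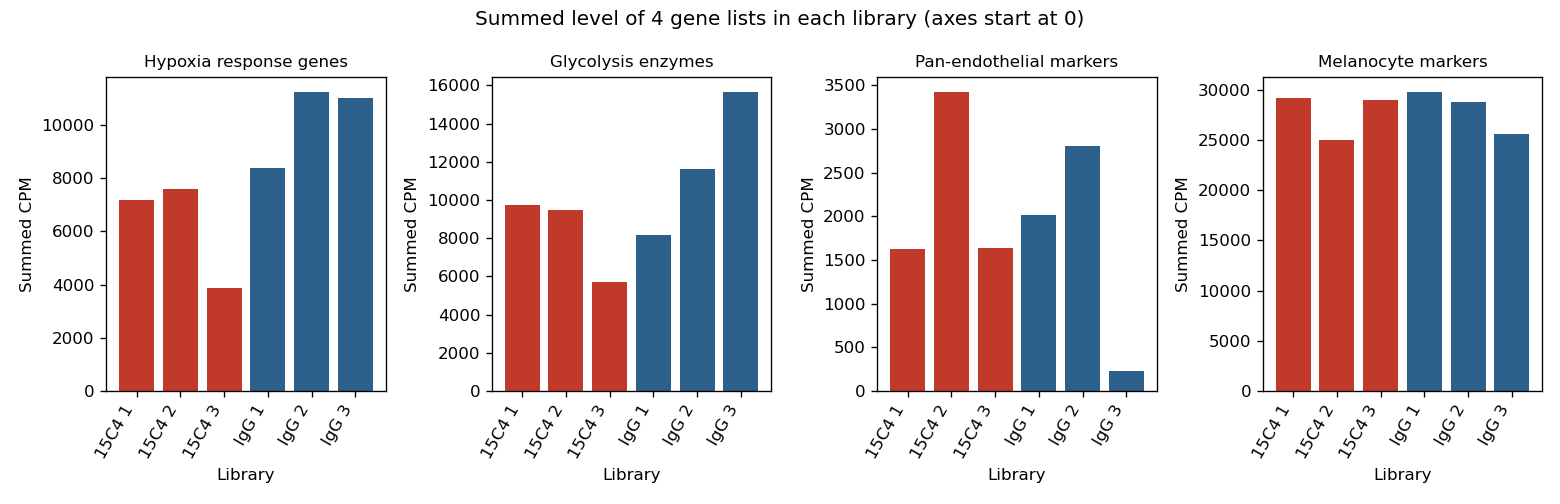
Summed CPM of the hypoxia response genes, the glycolysis enzymes, the pan-endothelial markers and the melanocyte markers in each library (15C4 red, IgG blue; each bar is 1 library). The hypoxia sum is lowest in 15C4 3 (3873 CPM) and at 8390 CPM or more in the IgG libraries, while the pan-endothelial sum is lowest in IgG 3.

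Promoter sequences are shown for 5 members, so that the HIF core motif can be seen in them. Ero1l, P4ha1, P4ha2 and Ankrd37 were lower in every 15C4 library than in any IgG library, while the groups overlapped for Bnip3, shown as the mitochondrial target with the highest mean CPM. Each sequence is the 250 bases before the RefSeq transcription start on GRCm38.p6, on the gene's strand, with each match to ACGTG or GCGTG on either strand in capitals (a reverse match reads CACGT or CACGC).

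Ero1l (listed as Ero1a, chr14:45318573-45318822, minus strand): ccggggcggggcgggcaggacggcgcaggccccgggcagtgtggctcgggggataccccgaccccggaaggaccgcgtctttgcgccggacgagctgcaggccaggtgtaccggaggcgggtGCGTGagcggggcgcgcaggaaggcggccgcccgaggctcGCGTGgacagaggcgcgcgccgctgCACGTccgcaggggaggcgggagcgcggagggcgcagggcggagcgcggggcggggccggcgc
P4ha1 (chr10:59323046-59323295, plus strand): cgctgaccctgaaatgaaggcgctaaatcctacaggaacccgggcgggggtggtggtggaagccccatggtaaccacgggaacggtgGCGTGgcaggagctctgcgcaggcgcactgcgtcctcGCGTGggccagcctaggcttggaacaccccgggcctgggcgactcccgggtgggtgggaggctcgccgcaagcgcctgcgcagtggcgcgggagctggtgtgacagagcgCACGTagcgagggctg
P4ha2 (chr11:54100674-54100923, plus strand): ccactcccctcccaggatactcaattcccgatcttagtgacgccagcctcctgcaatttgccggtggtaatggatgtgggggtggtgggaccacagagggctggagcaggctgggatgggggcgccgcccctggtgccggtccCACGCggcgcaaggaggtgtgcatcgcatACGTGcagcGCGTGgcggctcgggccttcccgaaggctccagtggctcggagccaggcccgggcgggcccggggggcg
Ankrd37 (chr8:45999851-46000100, minus strand): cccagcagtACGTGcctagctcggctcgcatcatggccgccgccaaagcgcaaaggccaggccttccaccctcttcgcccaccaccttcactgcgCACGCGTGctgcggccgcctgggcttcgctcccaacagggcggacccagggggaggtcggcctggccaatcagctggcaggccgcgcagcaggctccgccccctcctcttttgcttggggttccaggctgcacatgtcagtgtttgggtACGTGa
Bnip3 (chr7:138909507-138909756, minus strand): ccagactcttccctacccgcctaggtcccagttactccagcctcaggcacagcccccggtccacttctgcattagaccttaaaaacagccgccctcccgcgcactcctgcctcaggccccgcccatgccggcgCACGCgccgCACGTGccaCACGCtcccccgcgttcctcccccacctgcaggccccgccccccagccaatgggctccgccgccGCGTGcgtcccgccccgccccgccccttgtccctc

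The printed stretches hold 3 matches for Ero1l, 3 each for P4ha1 and P4ha2, 4 for Ankrd37 and 5 for Bnip3. Over the RefSeq windows of 250 bases before to 50 after a start, 26 members had an entry, and 23 of them (88.5%) held ACGTG or GCGTG in at least 1 window, beside 46.7% of all 27025 genes of the table. ACGTG alone was held by 17 of the 26 members (65.4%) and by 21.8% of all genes. The palindrome CACGTG, which contains ACGTG on both strands and is also the E-box of other factors, was held by 4 members (15.4%), among them Hif1a and Bnip3, and by 8.09% of all genes. Vhl, Car12 and Vldlr had no match in their windows. The member windows were richer in G and C, with a median of 65.0% and 25 CpG dinucleotides per window beside 52.7% and 7 over all 32851 windows, and both core motifs contain a CpG. Many members are textbook HIF targets, so the share describes the list and was not tested. Epas1, Bnip3l, Plod2, Lox, Bhlhe40 and Ndrg1 were not among the matched entries.

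Hif1a, the oxygen-regulated subunit found in most cell types (GRCm38 chromosome 12, 73901375 to 73947530), was at 358, 435 and 172 CPM in 15C4 1, 2 and 3 and at 556, 329 and 580 CPM in IgG 1, 2 and 3. The groups overlapped, with 15C4 3 lowest, and the log2 fold change was -0.53 (SE 0.41, 95% interval -1.46 to 0.39). Epas1, the endothelium-rich alpha subunit (chromosome 17, 86753700 to 86833410), was at 197, 206 and 83.7 CPM in 15C4 and at 140, 163 and 18.4 CPM in IgG. The lowest value was that of IgG 3, the library whose pan-endothelial sum was 227 CPM, and 15C4 1 and 2 were the highest. Its log2 fold change was 0.68 (SE 0.72, interval -0.96 to 2.32), which was 0.20 to 1.10 with 1 library left out in turn. Per kilobase of annotated exon, Epas1 stood at 0.0335 times Hif1a in IgG 3, at 0.265 times in IgG 1 and at between 0.500 and 0.582 times in the other 4 libraries. Whether the low ratio in IgG 3 comes with its low sum of pan-endothelial markers was not tested.

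Arnt, the shared partner subunit, was at 57.0, 43.0 and 23.9 CPM in 15C4 and at 21.4, 39.8 and 33.8 CPM in IgG. The ranges overlapped and the log2 fold change was 0.45 (SE 0.57). Of the HIF subunits, Hif1a thus had a fitted value below 0 and Epas1 and Arnt above 0, and all 3 intervals included 0.

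**Figure D3:**
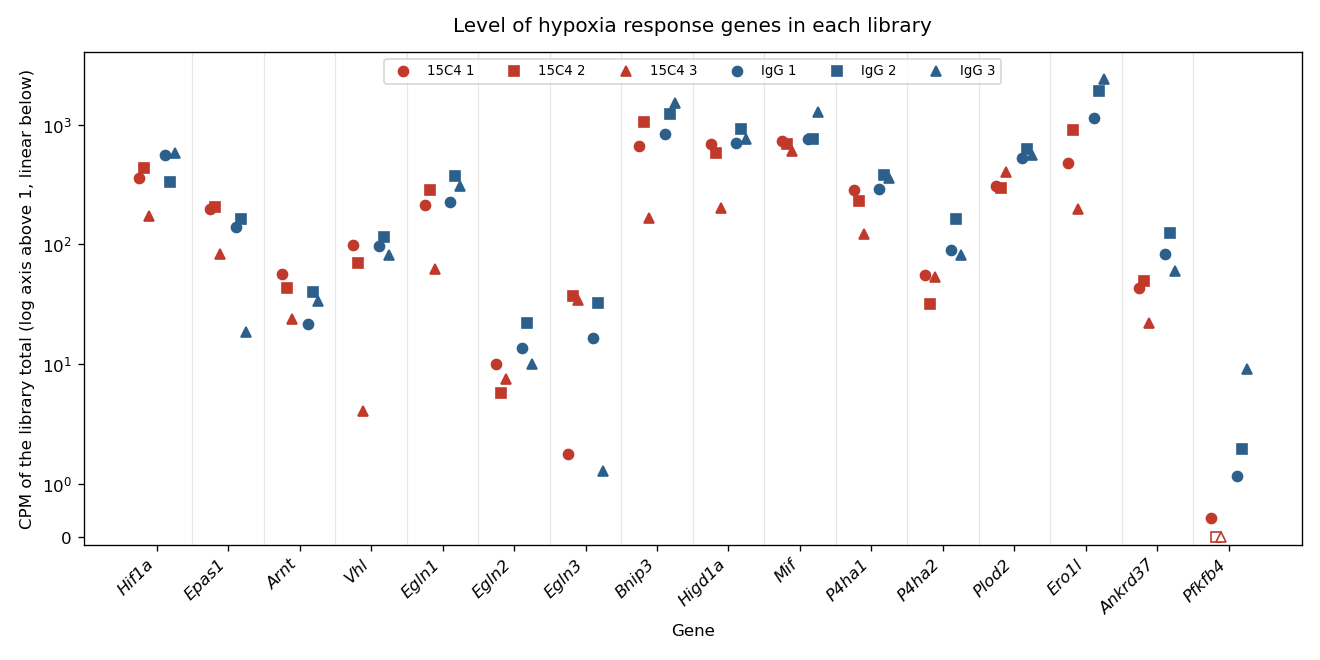
CPM of the library total (vertical axis, log scale above 1 and linear below, open symbols at 0) of 16 genes, with 15C4 in red and IgG in blue and a symbol for each replicate number. Ero1l, P4ha2 and Plod2 show separate groups, Vhl shows 15C4 3 alone at 4.07 CPM, and Epas1 and Egln3 have their lowest value in IgG 3.

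Among the oxygen sensors, Egln1 (PHD2), the main HIF hydroxylase, was at 214, 282 and 62.7 CPM in 15C4 and at 228, 369.5 and 308 CPM in IgG. 15C4 2 lay inside the IgG range and 15C4 3 well below it (log2 fold change -0.63, SE 0.51, interval -1.79 to 0.53). Egln2 (PHD1) was scarce, at 10.1, 5.77 and 7.51 CPM in 15C4 and 13.5, 22.0 and 10.1 CPM in IgG, with groups that touched on plain CPM and separated narrowly after TMM scaling (-0.88, SE 0.86). Egln3 (PHD3), itself a strongly HIF-induced gene, was at 1.79, 36.7 and 34.1 CPM in 15C4 and 16.6, 32.4 and 1.29 CPM in IgG. It was low in 1 library of each group, 15C4 1 and IgG 3, and its log2 fold change was 0.70 (SE 1.29), or 0.17 without IgG 3, 1.59 without IgG 2 and -0.22 without 15C4 3 and IgG 3 together. Per kilobase, Egln1 exceeded Egln2 between 6.51-fold (15C4 3) and 38.1-fold (15C4 2).

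Vhl, which encodes the ubiquitin ligase subunit that binds hydroxylated HIF, was at 98.4, 70.2 and 4.07 CPM in 15C4 and at 97.0, 114.5 and 81.4 CPM in IgG. The value of 15C4 3 rests on 26 counts and was the only one below 70 CPM. The log2 fold change was -0.73 (SE 0.86) with all libraries, -0.18 without 15C4 3 and -1.28 without 15C4 1.

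The mitochondrial targets all had fitted values below 0, 6 of 6, with log2 fold changes from -0.86 to -0.28. Bnip3, a mitophagy receptor, was at 656, 1054 and 166 CPM in 15C4 and at 834, 1221 and 1518 CPM in IgG. 15C4 2 lay within the IgG range and 15C4 3 was 0.194 times the mean of the other 15C4 libraries. Its log2 fold change was -0.86 (SE 0.58), or -0.43 without 15C4 3 and -1.52 without 15C4 2. Higd1a, which modulates respiratory chain activity under hypoxia, was at 685, 581 and 203 CPM in 15C4 and at 703, 919 and 754 CPM in IgG. The groups did not overlap, but 15C4 1 and IgG 1 differed by less than the spread of either group (-0.64, SE 0.41, interval -1.58 to 0.31). The remaining genes were Bnip3l, a relative of Bnip3 and mitophagy receptor (-0.80, SE 0.41), Pdk1, the kinase that keeps pyruvate out of the mitochondrion (-0.76, SE 0.65; -1.99 without 15C4 2 and -0.37 without 15C4 3), Fam162a (-0.49, SE 0.38) and Ak4, a mitochondrial adenylate kinase (-0.28, SE 0.41). Bnip3l spanned 60.2 to 159 CPM in 15C4 and 169 to 233 CPM in IgG, while Pdk1 spanned 47.1 to 296 CPM in 15C4 and 197 to 311 CPM in IgG.

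The 4 tested genes that prepare collagen all had fitted values below 0, and in 3 of them the groups did not overlap. P4ha1, the catalytic subunit of collagen prolyl 4-hydroxylase whose promoter is printed above (chromosome 10, 59323296 to 59373304), was at 282, 228 and 122 CPM in 15C4 and at 288, 382 and 356 CPM in IgG. 15C4 1 and IgG 1 lay almost level at the edge between the groups, and the log2 fold change was -0.63 (SE 0.35, interval -1.44 to 0.17). P4ha2, the alternative catalytic subunit (chromosome 11, 54100095 to 54131665), was at 55.1, 31.8 and 53.7 CPM in 15C4 and at 89.1, 163 and 80.8 CPM in IgG. Every 15C4 library was below every IgG library, and here 15C4 2, not 15C4 3, was lowest. The means were 46.8 ± 13.1 against 111 ± 45.3 CPM (SD, n = 3 each) and the log2 fold change was -1.15 (SE 0.48; edgeR unadjusted p = 0.0404, adjusted p = 1.00). Leaving out 1 library in turn gave -1.32 to -0.78, the value nearest 0 being that without IgG 2.

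Plod2, a lysyl hydroxylase that directs collagen cross-linking (chromosome 9, 92542223 to 92608428), was at 305, 294 and 401 CPM in 15C4 and at 522, 625 and 562 CPM in IgG. The libraries of each group lay close together and 15C4 3 was the highest of its group, unlike for most members. The means were 333 ± 59.1 against 569 ± 51.9 CPM (SD, n = 3 each), and the log2 fold change was -0.67 (SE 0.30, interval -1.36 to 0.03; unadjusted p = 0.0577 by edgeR's quasi-likelihood test, adjusted p = 1.00). With 1 library left out in turn it stayed between -0.89 and -0.54. Plod1, the relative that hydroxylates helical lysines, spanned 41.1 to 163 CPM in 15C4 and 54.9 to 158 CPM in IgG (-0.17, SE 0.60; -0.90 without 15C4 1 and 0.32 without IgG 2). Lox, which cross-links collagen outside the cell, had 1 count in 15C4 and 10 in IgG, all in IgG 1, and was too low to be tested.

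Ero1l, the endoplasmic reticulum oxidase that renews disulphide bonds in secreted proteins (chromosome 14, 45283087 to 45318771), had the smallest p of the members. It was at 475, 900 and 197 CPM in 15C4 and at 1135, 1901 and 2412 CPM in IgG. All 3 15C4 libraries were below the IgG libraries, although the gap between 15C4 2 and IgG 1 was small beside the range within either group. The means were 524 ± 354 against 1816 ± 643 CPM (SD, n = 3 each) and the log2 fold change was -1.71 (SE 0.54, interval -2.95 to -0.48; edgeR unadjusted p = 0.0125, adjusted p = 1.00). DESeq2 gave an adjusted p of 0.296. Leaving out 1 library in turn gave -2.40 to -1.35, and leaving out 15C4 3 and IgG 3 together gave -1.06. IgG 3, the library with the lowest pan-endothelial sum, held the highest level, and the log2 fold change without it was -1.43.

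Mif, a cytokine made by many cells including melanoma, was at 723, 683 and 605 CPM in 15C4 and at 753, 757 and 1274 CPM in IgG. IgG 3 stood alone above the other 5 libraries, which lay within 605 to 757 CPM. The groups did not overlap, but the edge between them was narrow, with 15C4 1 at 723 CPM and IgG 1 at 753 CPM. The log2 fold change was -0.39 (SE 0.32), or -0.05 without IgG 3 and -0.53 without IgG 2. The genome holds 2 annotated copies named after Mif (Mif-ps3 and Mif-ps7), and how reads were split among them is not known. Copies are also named after Vhl (Vhl-ps1) and Bnip3l (Bnip3l-ps), with the same limit. Vldlr, a lipoprotein receptor, reached 48.6 CPM in 15C4 3, 35.3 CPM in IgG 2 and at most 2.90 CPM in the rest, so that its sign turned when 15C4 3 was left out (from 0.64 to -3.08), and it was 3.78 without IgG 2. Stc2, a secreted glycoprotein, had 0 counts in all 6 libraries. By counting error alone this allows up to between 0.153 and 0.580 CPM per library, if reads are taken as independent.

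Slc2a1 (GLUT1), the glucose transporter of the response, had a fitted value above 0: it was at 255.6, 344 and 547 CPM in 15C4 and at 314, 422 and 249 CPM in IgG. Here 15C4 3 was the highest library and IgG 3 the lowest. The log2 fold change was 0.35 (SE 0.41, interval -0.58 to 1.27), and -0.078 without 15C4 3. Pfkfb4, a kinase that raises the allosteric activator of glycolysis (chromosome 9, 108991778 to 109032228), was barely detected, with 3, 0 and 0 counts in 15C4 and 6, 19 and 106 counts in IgG. Its log2 fold change was -5.03 (SE 2.15, interval -9.95 to -0.11). The ratio of pooled counts, IgG to 15C4, scaled to library totals, was 56.7 (95% counting interval 19.0 to 278). Counting intervals leave out the spread between libraries. Of the 131 IgG counts, 106 were in IgG 3, without which the ratio was 19.3 (5.90 to 100.01). Without 15C4 1, which held all 3 counts, Pfkfb4 was at least 42.8-fold lower in 15C4, at a floor of 3 counts over the group. That floor takes reads as independent. The ratio was 24.4 without 15C4 2, the deepest library.

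The pH regulator Car9, a surface carbonic anhydrase often used as a hypoxia marker, was at 401, 95.5 and 65.4 CPM in 15C4 and at 196, 588 and 370 CPM in IgG. 15C4 1 lay inside the IgG range (log2 fold change -1.02, SE 0.66, interval -2.54 to 0.49), and the value was -2.10 without 15C4 1 and -0.60 without IgG 2. Its relative Car12 had 0 counts in 15C4 and 1 and 5 in IgG 2 and 3.

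Of the regulators of transcription and growth, Ankrd37, a small ankyrin repeat protein and HIF target, was at 42.9, 49.7 and 22.2 CPM in 15C4 and at 82.3, 125 and 59.99 CPM in IgG. The groups did not overlap, with means of 38.2 ± 14.3 against 89.1 ± 33.0 CPM (SD, n = 3 each) and a log2 fold change of -1.14 (SE 0.51, interval -2.31 to 0.03; edgeR unadjusted p = 0.0545, adjusted p = 1.00). Ankrd37 overlaps Lrp2bp and Ufsp2 on the other strand, and since the strand setting of the counts is not given, their reads cannot be told apart. The other 5 genes of this role lay between -0.34 and 0.30: Ndrg1, a stress-induced differentiation gene (-0.34, SE 0.36), the clock repressor Bhlhe40 (-0.20, SE 0.45), the histone demethylase Kdm3a (-0.14, SE 0.36), the MYC antagonist Mxi1 (0.11, SE 0.43) and the mTOR inhibitor Ddit4 (0.30, SE 0.82). Ddit4 was at 31.1, 33.2 and 5.01 CPM in 15C4 and between 14.6 and 21.8 CPM in IgG.

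**Figure D4:**
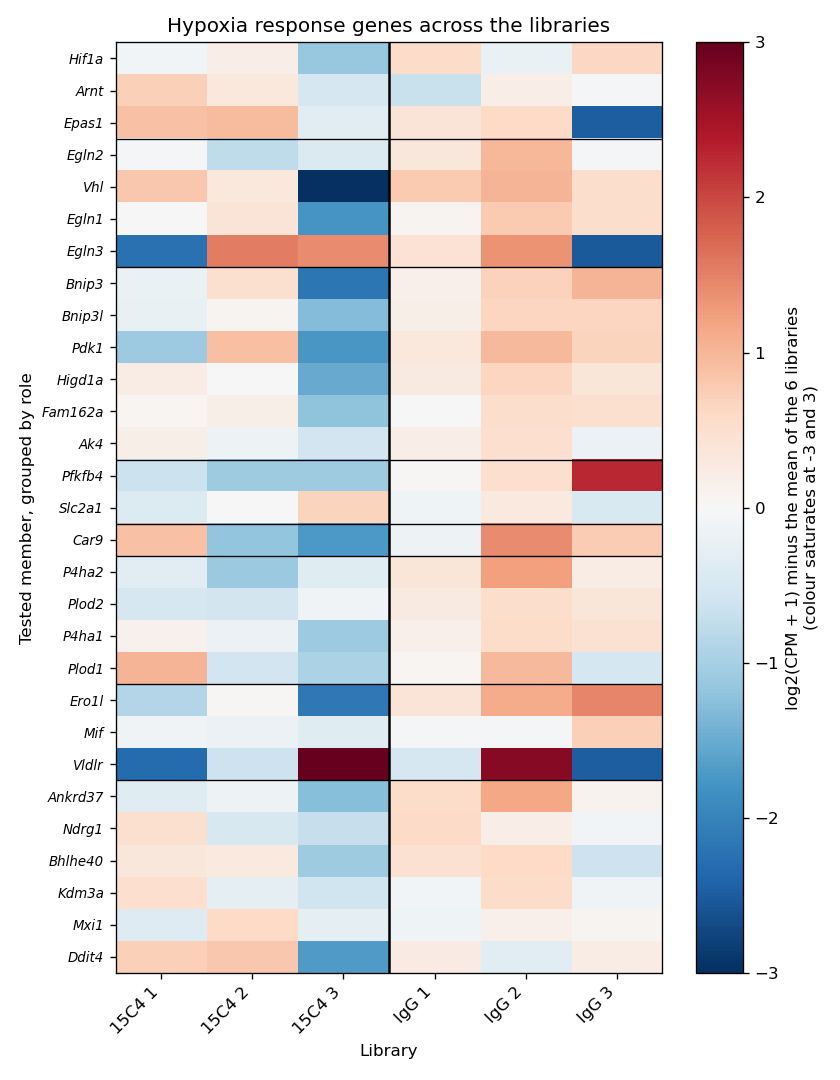
Deviation of log2(CPM + 1) from the mean of the 6 libraries for the 29 tested genes (rows, grouped by role) in each library (columns). The 15C4 3 column is mostly blue, with Vldlr, Egln3 and Slc2a1 in red, and the IgG 2 column is mostly red.

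The members shared a pattern by library as well as by group. 15C4 3 was the lowest of the 6 libraries for 19 of the 29 tested members (65.5%), where it was the lowest for 35.7% of all tested genes, and IgG 2 was the highest for 15 (51.7%), where it was so for 18.2% of all genes. Within the 15C4 group, 15C4 3 was below both other libraries for 21 members and above both for 3, namely Slc2a1, Plod2 and Vldlr. Without 15C4 3 the median log2 fold change of the tested members was -0.27, with 21 of 29 below 0. Without 15C4 3 and IgG 3 together it was -0.29, with 25 of 29 below 0. For the counts within the 15C4 group and without these libraries, the shares over all tested genes are not given here. Plod2 and P4ha2 were lower in 15C4 without being lowest in 15C4 3.

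Levels per kilobase of annotated exon, averaged over the 6 libraries, were highest for Mif, at 1073 ± 321 CPM per kilobase (SD, n = 6). Fam162a followed at 812 ± 276, Bnip3 at 401 ± 208, Ero1l at 221 ± 160 and Higd1a at 211 ± 79.5 CPM per kilobase. Over the libraries of both treatments the ranges of Mif and Fam162a overlapped, as did those of Ero1l (37.3 to 456) and Higd1a (66.6 to 302). The order within each library was not compared for these pairs. At the low end, Arnt stood at 4.56 ± 1.64 and Egln2 at 4.11 ± 2.06 CPM per kilobase, while Hif1a, at 68.7 ± 25.9, was 10th of the 32 in the order, beside Bhlhe40, Egln1 and P4ha1. P4ha1 exceeded P4ha2 between 3.45-fold and 10.9-fold per kilobase, and Bnip3 exceeded Bnip3l between 4.69-fold and 11.3-fold, in all 6 libraries.

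The other genes of the pathway were taken from 3 lists, in which 0 genes were called in either direction. All 16 tested enzymes of glycolysis were fitted below 0 (median log2 fold change -0.53). Gpi1, which makes fructose 6-phosphate, was at 522, 470 and 344 CPM in 15C4 and at 558, 908 and 1124 CPM in IgG (-0.88, SE 0.34), and Pfkp, a phosphofructokinase, at 175, 265 and 133 against 404, 361 and 337 CPM (-0.85, SE 0.35). Both were lower in every 15C4 library than in any IgG library. After TMM scaling this held for 4 of the 16 enzymes, beside 5.92% of all tested genes. The summed levels of the enzymes overlapped between the groups, with IgG 1 (8151 CPM) below 15C4 1 (9734 CPM) and 15C4 2 (9474 CPM). The other HIF pathway components had 4 of 11 tested genes above 0 and 7 below (median -0.09): Cul2, the scaffold of the VHL ligase, had a log2 fold change of 0.99 (SE 0.62), at 250 CPM in 15C4 3 against 48.3 to 96.8 CPM elsewhere, and Cited2, an inhibitor of HIF coactivator binding, 0.39 (SE 0.38). The other hypoxia targets were split, with 12 of 20 above 0 and 8 below (median 0.21). Gbe1, the glycogen branching enzyme, was at 38.0, 108 and 70.9 CPM in 15C4 and at 129, 168 and 231 CPM in IgG (-1.17, SE 0.50), and Jmjd6 had a log2 fold change of -0.88 (SE 0.45).

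The authors' deposited table gives its own comparison, with fold changes as IgG over 15C4. There 1 of the 32 members passed an adjusted p of 0.05, beside 3.59% of the genes with an adjusted p: the authors' deposited table lists Pfkfb4 at a log2 fold change of 5.17 and an adjusted p of 0.0496. Ero1l follows in the authors' deposited table at 1.68 and an adjusted p of 0.0804. The authors' deposited table also lists an adjusted p of 0.996 for Stc2, which had 0 counts in all 6 libraries, a p that these libraries alone cannot give, and the model behind the table is not given in the sources used here.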

How the data were processed

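Per the labels' protocols, cDNA of sorted cells was amplified by PCR and made into sequencing libraries with Nextera XT reagents. The authors deposited whole-number counts per gene symbol for each library; fastp, STAR 2.5b, featureCounts and DESeq2 are named, with the builds mm10 and mm9 and no roles, per the submitters' processing notes. The sources used here give neither annotation nor strand setting. Members besides Ankrd37 also overlap annotated genes on the other strand. Among them are Egln2 (Cyp2t4), Fam162a (Wdr5b), Higd1a (Gm47112), Plod2 (Gm38391) and Bnip3 (Gm18258 and Gm45507). The series table holds the same counts for all 32 members, and the authors' log2 fold changes and adjusted p-values, per the file headers.

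Here counts were scaled to CPM of the library total and tested with edgeR 4.0.16 (R 4.3.3; quasi-likelihood, TMM, treatment as the only term). Genes were kept by filterByExpr with a minimum count of 10 and a total of 15. Adjusted p is by Benjamini-Hochberg over all 11144 tested genes, with a threshold of 0.05; p-values printed with a fold change are edgeR's. SE is the absolute log2 fold change over the square root of F. In simulated counts (10626 genes tested) edgeR made 4 false calls. It found 3 of the 50 genes set at 4-fold, 23 of those at 16-fold and 29 of those at 64-fold. Apart from the set changes, simulated libraries differed only in depth and random spread, with none set apart as 15C4 3 was. A changed gene under the filter counted as not found. Coordinates and exon lengths are from GENCODE M21 (GRCm38), promoters from RefSeq (GRCm38.p6). Counting intervals (95%, exact binomial) and floors (3 counts) describe counting error alone and take each read as independent. Reads amplified by PCR and lacking molecular identifiers are no independent molecules, so both may understate even that error. Libraries of a group differed far beyond counting noise (chi-square per degree of freedom of at least 63.1), so each was counted once.

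The members, roles and lists were chosen with earlier results of these data known. Values in every library are given for the HIF subunits and sensors, members whose groups do not overlap, the 5 smallest p and the 3 highest mean CPM; from each pathway list the 2 smallest p are named; Slc2a1, Car9, Ddit4, Bnip3l, Pdk1, Plod1 and Vldlr were given values after these were seen. Alternatives were other normalisations, filters and tools, leaving out libraries and a replicate block.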

Additional observations from a re-analysis of the deposited data

How the results depend on the processing

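No member was called under any alternative run (normalisation by RLE, upper quartile or library totals, no filter, a mean count of at least 50, DESeq2, limma-voom, the replicate block, each library left out in turn). Genes called over the whole table were 26 with DESeq2 and 1 without a filter, against 0. The median log2 fold change of the tested members was -0.70 to -0.27 with 1 library left out and -0.63 to -0.51 with all libraries kept and no block. Members whose groups did not overlap numbered 9 to 14 with 1 library left out, and 16 without 15C4 3 and IgG 3 together, an alternative chosen after seeing the data. Fewer libraries separate more easily: 15.5% to 24.2% of all tested genes did not overlap with 1 left out and 32.3% without both. The share of member promoters with the motif was 65.4% for ACGTG alone.

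Of 432 pairs of a member and an alternative, 15 turned sign, in 8 members. With the block, Vldlr turned to -2.15. Without 15C4 3 and IgG 3 together, Egln3 was at -0.22, Slc2a1 at -0.23 and Vldlr at -3.66. With 1 library left out, the ranges were -0.90 to 0.32 for Plod1, -0.27 to 0.33 for Mxi1, -0.10 to 0.76 for Ddit4, -0.078 to 0.62 for Slc2a1, -3.08 to 3.78 for Vldlr, -0.47 to 0.11 for Bhlhe40 and -0.43 to 0.080 for Kdm3a. The cause was not tested. Pfkfb4 could not be fitted without IgG 2 or IgG 3, being under the filter. With the replicate number as a block, 0 members were called and the median was -0.68, with 23 of 29 below 0. The share of all genes below 0 in that fit is not given here. Deviations of libraries with the same number correlated at -0.05, 0.07 and 0.11, and those with different numbers at -0.12 to 0.09. The labels do not say whether the numbers pair libraries, and correlations this weak cannot decide it. The fitted biological coefficient of variation of 0.861 limits what 3 libraries can show.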

Other observations

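Of the 12 other hypoxia targets with fitted values above 0, 3 act on vessels or lipid handling. Adm, which encodes the vessel peptide adrenomedullin, was at 14.4, 129 and 234 CPM in 15C4 1, 2 and 3 and at 20.7, 81.7 and 8.74 CPM in IgG 1, 2 and 3 (log2 fold change 1.94, SE 1.08). Edn1, the endothelial peptide endothelin, was at 36.3, 182 and 119 CPM in 15C4 and at 59.1, 47.4 and 0.428 CPM in IgG (1.80, SE 1.26). Angptl4, a lipase inhibitor, was at 15.0, 70.4 and 67.3 CPM in 15C4 and at 36.7, 31.1 and 2.40 CPM in IgG (1.27, SE 1.01). All 3 genes were lowest in IgG 3, the library with 227 CPM of pan-endothelial markers, where Epas1 and Egln3 were also lowest, and the groups overlapped. Vegfa, the secreted vessel growth factor, was instead at 416, 222 and 76.2 CPM in 15C4 and at 427, 747 and 321 CPM in IgG (-1.03, SE 0.56). These 4 genes were chosen after their values were seen, and none passed edgeR's test.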
